A study of Danio rerio with 12 samples.

Results

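The genes described here are 10 zebrafish genes whose relatives have been described in the literature as targets of the microRNA miR-126, leaving aside spred1, the best known of them. They are vegfaa, cxcl12a, cxcl12b, adam9a, crk, pak1, plk2b, tom1, hoxa9a and hoxa9b. All probe sets that the platform's annotation gives 1 of these symbols were taken, which made 15 probe sets for 10 genes, of 15502 probe sets tested on the array and 8793 genes with a single symbol. RNA came from endothelial cells of flk1:GFP zebrafish embryos, which carry a GFP transgene that is active in the endothelium, sorted by fluorescence 48 hours after fertilization. The groups were miR-126 MO-1, miR-126 MO-2 and control, of 4 biological replicates apiece. Both morpholinos are antisense oligonucleotides that block processing of the miR-126 precursor, and each was given alone, at the one-cell stage and at a dose of 4 ng. The control labelled replicate 1 was uninjected; the labels of control replicates 2, 3 and 4 name no injection and no control oligonucleotide, so an effect of injection itself and an effect of the loss of miR-126 cannot be told apart. A morpholino lowers microRNA maturation in the whole embryo, and the labels give no measurement of how much miR-126 was left in the sorted cells. Values are log2 signals after the authors' normalization across arrays (RMA, robust multi-array average), and a difference of 1 on this scale is a change by a factor of 2.

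MicroRNAs bind short matches in messenger RNAs, mostly through the seed at the microRNA's own start, and lower the stability or the translation of those messengers. miR-126 is carried in an intron of the endothelial gene Egfl7 and is abundant in vessels and in some blood progenitors. In mouse and zebrafish it is known for restraining inhibitors of VEGF signalling, and in human and mouse cells adaptors, kinases, chemokines and Hox factors have been named as further targets. A messenger held down by the microRNA would be higher where the microRNA is not made, and an effect on translation alone would not be seen on an array.

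The labelled cell type was checked against marker genes, and the arrays numbered 4 of all 3 groups stood apart in endothelial and epidermal markers. Of 31 listed endothelial markers 10 were measured, none with a mean under the lower quartile of all probe sets, and the score of a list is the mean over its genes of the deviation from each gene's own average across arrays. The endothelial score was -1.29, -1.01 and -0.71 in MO-1, MO-2 and control replicate 4 and between -0.11 and 0.60 in the other 9 arrays. The score of 23 epidermal markers in the same 3 arrays was 0.46, 0.48 and 0.64, where the other 9 ran from -0.67 to 0.35. That of 29 skeletal muscle markers was 0.74, 1.19 and 0.62, where the other 9 ran from -1.67 to 0.81. Muscle scores were also high in the arrays numbered 2, at 0.75 with MO-1, 0.81 with MO-2 and 0.50 in control. Over the groups, the mean log2 level of the endothelial markers ran from 6.62 to 8.49 with MO-1 and from 6.91 to 8.51 with MO-2, against 7.20 to 8.12 in control. In control, skeletal muscle markers (8.21 to 10.50) and epidermal markers (8.45 to 9.63) lay above the endothelial range. So did myeloid markers (8.30 to 8.91) and mesenchyme and fin fold markers (8.30 to 8.60). Erythroid markers (8.05 to 8.38) and neural markers (7.10 to 8.07) overlapped it, and liver, gut and yolk markers (6.44 to 6.98) lay below. These levels do not show how pure the sorts were. In sorted bulk samples, fewer cells of a type and less RNA per cell cannot be told apart. As a sign of RNA quality, the 3′ minus 5′ log2 signal of control probe sets was read for acta1 and GAPDH. For acta1 it was 3.49, 3.70 and 3.88 in MO-1, MO-2 and control replicate 4. The other 9 arrays had 2.497 to 3.46, the highest of them MO-1 replicate 1. For GAPDH it was 1.79, 2.09 and 1.76, against 0.78 to 1.82 in the other 9, which overlap. The arrays numbered 3 had 1.68, 1.79 and 1.82 for GAPDH, so this gene did not set the arrays numbered 4 apart. The gene that did, acta1, encodes a skeletal muscle actin, and the muscle list above names acta1 genes. The part of the muscle signal in its 3′ minus 5′ values was not tested.

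Of the 15 probe sets, none passed the test in any comparison. By limma with Benjamini-Hochberg adjustment over 15502 probe sets, 0 of 15 were called with MO-1 against control, with MO-2 against control, with both morpholinos against control, and with MO-2 against MO-1, and the share called among all probe sets was 0% in each of the 4 comparisons. At an unadjusted p under 0.05, 0 of 15 were found with MO-1 (1.11% of all probe sets), 1 of 15 with MO-2 (2.23%), 1 of 15 with both together (1.89%) and 0 of 15 between the morpholinos (0.561%). The single probe set was that of hoxa9b. In a fit that took the replicate number as a block, the same counts were 1 of 15 with MO-1 (hoxa9b, against 2.87% of all probe sets), 3 of 15 with MO-2 (hoxa9b, the brighter hoxa9a probe set and cxcl12b, against 6.11%), 1 of 15 with both together (hoxa9b, against 5.48%) and 0 between the morpholinos (against 2.28%), and 0 passed after adjustment. The comparisons with control share the same 4 control arrays, so their values are given side by side and are not independent of each other.

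Taking for each gene its brightest probe set, the median difference of the 10 genes was 0.0076 log2 with MO-1, 0.091 with MO-2 and 0.027 with both, where the median over all probe sets was 0.019, 0.0073 and 0.015. Over all genes with a single symbol, each by its brightest probe set, the median was 0.024, 0.012 and 0.020. The medians of the 10 genes depended on which arrays entered. Leaving out 1 array or 1 number gave -0.10 without replicate 2 and 0.17 without MO-1 replicate 4 at the extremes for MO-1. For MO-2 the extremes were 0.026 without control replicate 2 and 0.25 without MO-2 replicate 4, and for both morpholinos -0.0051 without control replicate 2 and 0.12 without replicate 4, so the sign turned for MO-1 and for both. The 10 differences ran from -0.21 to 0.34 with MO-1 and from -0.19 to 0.68 with MO-2. The mean was higher than in control for 5 of 10 genes with MO-1, where 54.7% of all probe sets were higher, and for 8 of 10 genes with MO-2, where 51.9% were. Between the morpholinos the median difference of the 10 genes was 0.069, with 8 of 10 higher with MO-2 than with MO-1, against 46.4% of all probe sets. With both morpholinos together 5 of 10 genes had a higher mean than control, against 54% of all probe sets. These counts take tom1 by a probe set whose gene number has no RefSeq entry, at 0.24 with MO-1 and -0.14 for MO-2 minus MO-1. The brighter tom1 probe set under the RefSeq number had -0.010 and 0.12, so the direction of tom1 turned in these comparisons.

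**Figure D1:**
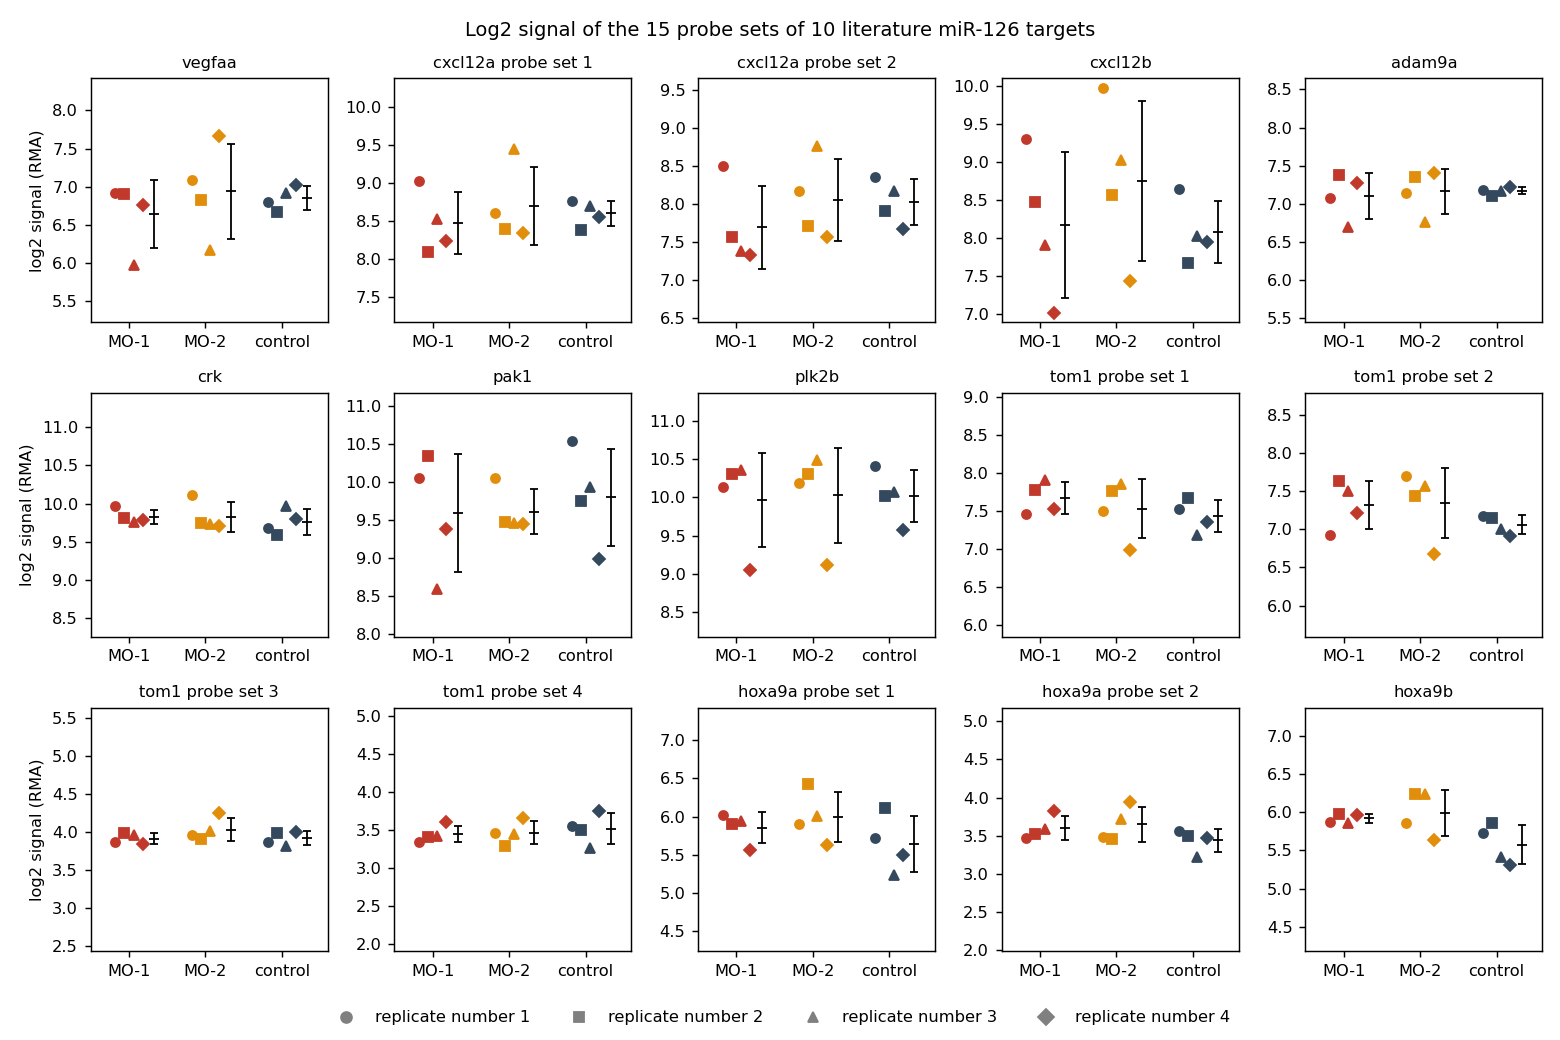
Log2 signal of the 15 probe sets in every array; colours are the groups, symbols are the replicate numbers, and the bar beside each group is its mean ± SD (n = 4). Every panel spans the same height on the log2 scale, so panels with scattered points, such as cxcl12b and pak1, varied more between arrays than crk or adam9a, and only in the hoxa9b panel do all MO-1 points lie above all control points.

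**Figure D2:**
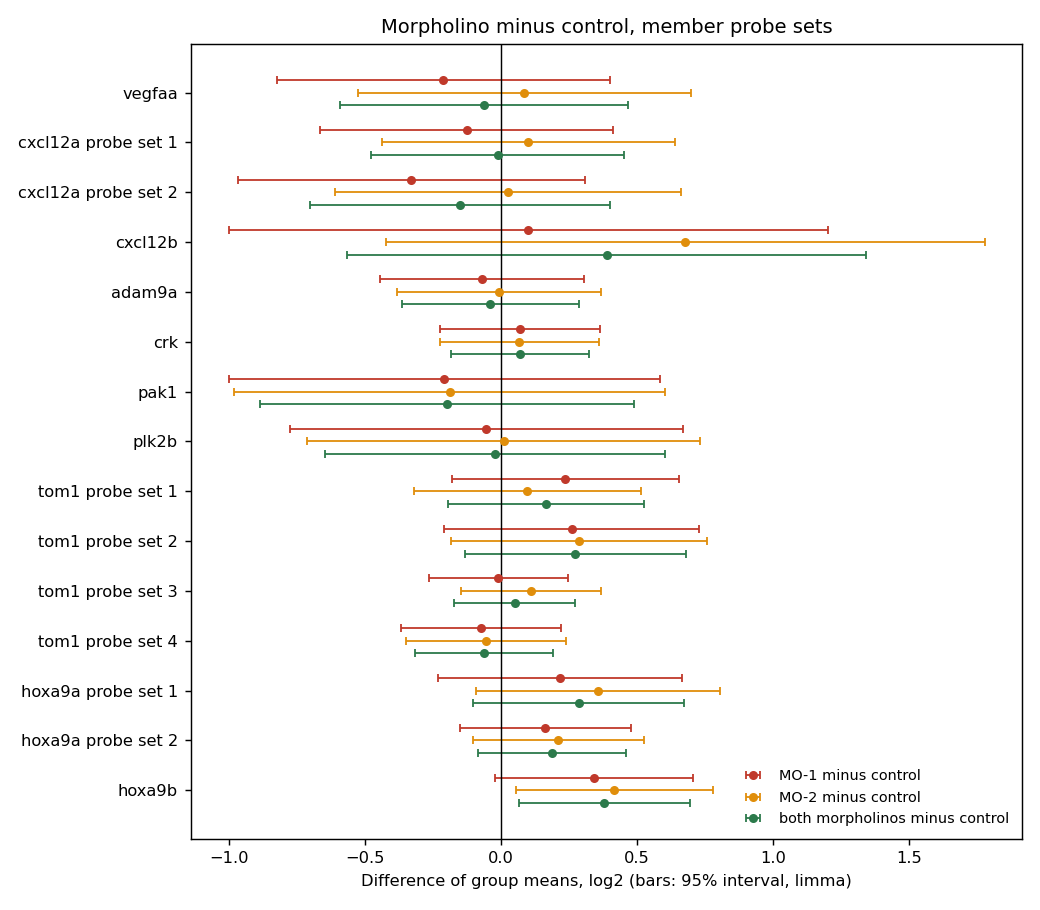
Differences of group means in log2 signal, one row per probe set, with 95% intervals from limma; red is MO-1 minus control, orange MO-2 minus control and green both morpholinos minus control. In this fit, which did not take the replicate number as a block, the interval excluded 0 for hoxa9b alone. It did so with MO-2 (0.053 to 0.78) and with both (0.065 to 0.69), and no difference passed after adjustment over all probe sets.

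Of the 10 genes, hoxa9b alone had all its MO-1 arrays above all control arrays. hoxa9a and hoxa9b are the zebrafish copies of HOXA9, a homeobox transcription factor that in mammals is active in blood progenitors and in endothelial cells. The probe set of hoxa9b had log2 signals of 5.87, 5.98, 5.86 and 5.97 in MO-1 replicates 1 to 4 and 5.86, 6.24, 6.24 and 5.64 in MO-2 replicates 1 to 4, against 5.74, 5.86, 5.41 and 5.31 in control replicates 1 to 4. All 4 MO-1 arrays lay above all 4 control arrays, by as little as 0.0040 between the lowest MO-1 and the highest control array, while MO-2 replicate 4 lay inside the control range. Of the 15 probe sets hoxa9b was the 1 that did not overlap and was higher with MO-1 (0.645% of all probe sets did so), 0 of 15 did not overlap and were lower (0.323%), and with MO-2 0 of 15 did not overlap in either direction (0.955% higher and 0.884% lower among all probe sets). With both together 0 of 15 did not overlap (0.0968% higher and 0.0903% lower among all), nor did any between MO-2 and MO-1 (0.181% higher and 0.303% lower among all). The difference of hoxa9b was 0.34 (SE 0.17) with MO-1, 0.42 (SE 0.17) with MO-2 and 0.38 (SE 0.15) with both, a fold of 1.3 in the last case, and none passed limma's test (adjusted p = 1 each). Its unadjusted p with both together, 0.0218, had rank 107 among the 15502 probe sets. The exact permutation test over arrays, two-sided and not adjusted for the 60 such tests of these 15 probe sets, gave p = 0.0286 with MO-1, which is the smallest that 4 against 4 arrays can give, and p = 0.114 with MO-2. This test shuffled the arrays freely and took no account of the replicate numbers, although these pair the samples. Its p with MO-1 restates that MO-1 and control did not overlap, since 4 against 4 arrays give that p in no other case.

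Between arrays of the same replicate number, hoxa9b was higher than control by 0.13, 0.13, 0.45 and 0.66 in the MO-1 arrays numbered 1 to 4, and by 0.12, 0.39, 0.83 and 0.33 in the MO-2 arrays. A difference above 0 under all 4 numbers was found for 1 of 15 probe sets with MO-1 (hoxa9b, against 6.26% of all probe sets) and for 2 of 15 with MO-2 (hoxa9b and the brighter hoxa9a probe set, against 7.06%). A difference below 0 under all 4 was found for 0 of 15 with MO-1 (against 3.86%) and 0 of 15 with MO-2 (against 6.86%). For the mean of both morpholinos, 3 of 15 were above control under all 4 numbers (hoxa9b, the brighter hoxa9a and the second tom1 probe set, against 8.23%) and 1 of 15 was below (the dimmer cxcl12a probe set, against 6.7%). Leaving out 1 array, or the arrays of 1 number, kept the difference of hoxa9b at 0.24 to 0.43 with MO-1 and at 0.28 to 0.54 with MO-2. MO-2 and MO-1 differed by 0.075 (95% interval -0.29 to 0.44), which did not pass (adjusted p = 1), so the order MO-2, MO-1, control holds in the means of 5.995 ± 0.30, 5.92 ± 0.065 and 5.58 ± 0.26 (SD, n = 4 each) without the first 2 being distinguishable. The signal of hoxa9b was low on the array, with 1 of 12 values under the lower quartile of its array (5.37 to 5.59 over the arrays). With MO-2, 29 of 29 measured skeletal muscle markers had a higher mean than in control, with a median difference of 0.62, and with MO-1 15 of 29 did with a median of 0.017. The mean log2 level of these muscle markers ran from 8.67 to 10.63 over MO-1 arrays and from 9.73 to 11.07 over MO-2 arrays, against 8.21 to 10.50 over control arrays, and none had a mean under the lower quartile of all probe sets. With MO-1 the erythroid markers were the list furthest from control, with a higher mean for 1 of 12 and a median difference of -0.56, where MO-2 had 4 of 12 and -0.11. Their mean level ran from 6.89 to 8.61 over MO-1 arrays and from 7.46 to 8.84 over MO-2 arrays, against 8.05 to 8.38 over control arrays, and 2 of 12 had a mean under the lower quartile. Epidermal markers had a higher mean than control for 4 of 23 with MO-1 and 7 of 23 with MO-2, with medians of -0.14 and -0.11. Their mean level ran from 8.31 to 9.44 over MO-1 arrays and from 8.49 to 9.46 over MO-2 arrays, against 8.45 to 9.63 over control arrays, and 3 of 23 had a mean under the lower quartile. Endothelial markers had a higher mean than control for 8 of 10 with MO-1 and 9 of 10 with MO-2, with medians of 0.14 and 0.23. For neural markers it was higher for 11 of 29 with MO-1 and 9 of 29 with MO-2, with medians of -0.11 and -0.25. Myeloid markers were higher for 9 of 13 with MO-1 and 10 of 13 with MO-2, with medians of 0.14 and 0.093. Mesenchyme and fin fold markers were higher for 8 of 13 and 9 of 13, with medians of 0.055 and 0.092. Liver, gut and yolk markers were higher for 10 of 24 and 11 of 24, with medians of -0.048 and -0.016. The part of these marker signals in the values of hoxa9b was not tested.

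The brighter probe set of hoxa9a had 6.02, 5.90, 5.94 and 5.56 in MO-1 replicates 1 to 4 and 5.91, 6.43, 6.01 and 5.63 in MO-2 replicates 1 to 4, against 5.72, 6.11, 5.23 and 5.50 in control replicates 1 to 4. Its signal was low too, with 2 of 12 values under the lower quartile of their array. The groups overlapped, since control replicate 2 lay above every MO-1 array and was passed only by MO-2 replicate 2. The difference was 0.22 (SE 0.21) with MO-1 and 0.36 (SE 0.21) with MO-2 and did not pass (adjusted p = 1 each by limma). Leaving out arrays gave 0.050 (without replicate 3) to 0.37 (without control replicate 2) with MO-1 and 0.21 (without MO-2 replicate 2) to 0.51 (without control replicate 2) with MO-2. The other hoxa9a probe set was under the lower quartile on 12 of 12 arrays, at 3.60 ± 0.16 with MO-1 and 3.65 ± 0.23 with MO-2 against 3.44 ± 0.15 in control (SD, n = 4 each), and differed by 0.16 and 0.21. Over the 12 arrays the hoxa9a probe sets correlated at 0.012, so the dimmer one did not follow the brighter one.

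Of a list of Hox A cluster genes and of the Pbx and Meis cofactors that bind DNA with Hox proteins, hoxa9a and hoxa9b left out, 18 of 21 were measured and 0 passed in either direction with MO-1, MO-2 or both. Their mean was higher than control for 12 of 18 with MO-1 (median difference 0.099) and for 11 of 18 with MO-2 (median 0.094), and 1 of 18 had an unadjusted p under 0.05 with both, against 1.89% of all probe sets. That gene was hoxa10b, a homeobox factor of the same cluster as hoxa9b, at 0.34 (SE 0.18) with MO-1 and 0.43 (SE 0.18) with MO-2, not passing (adjusted p = 1 each by limma). The signal of hoxa10b was low. Its means of 5.07 with MO-1, 5.16 with MO-2 and 4.73 in control lay under the lower quartiles of the arrays (5.37 to 5.59). Next came hoxa4a, a homeobox factor of the other hoxa cluster, with 0.23 (SE 0.21) and 0.42 (SE 0.21). The counts pool Hox genes with cofactors. With MO-1 and MO-2, hoxa2b was higher by 0.51 (SE 0.33) and 0.43 (SE 0.33), hoxa3a by 0.29 and 0.15 and hoxa5a by 0.24 and 0.14. Of the cofactors, pbx3b (-0.12 and -0.52), pbx4 (-0.16 and -0.16) and meis2a (-0.13 and -0.28) were lower, and meis3 (0.27 and 0.28) was higher.

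Among the secreted ligands, cxcl12b had the widest spread of the 10 genes, an SD of 0.83 log2 over the 12 arrays. cxcl12a and cxcl12b are the zebrafish copies of CXCL12, the chemokine that guides cells carrying the receptor CXCR4, among them germ cells, blood progenitors and growing vessels. Log2 signals of cxcl12b were 9.29, 8.47, 7.90 and 7.02 in MO-1 replicates 1 to 4 and 9.97, 8.57, 9.02 and 7.43 in MO-2 replicates 1 to 4, against 8.64, 7.67, 8.03 and 7.94 in control replicates 1 to 4. In each group the array numbered 1 was the highest, the arrays numbered 4 with MO-1 and with MO-2 were the lowest of all 12, and the groups overlapped. The difference was 0.099 (95% interval -1.003 to 1.202) with MO-1 and 0.68 (95% interval -0.43 to 1.78) with MO-2 and did not pass (adjusted p = 1 each by limma). MO-2 exceeded MO-1 by 0.58 (95% interval -0.52 to 1.68, adjusted p = 1), and it was higher than MO-1 under all 4 numbers, by 0.68, 0.10, 1.11 and 0.41. That difference was 0.17 without MO-2 replicate 1 and 1.02 without MO-2 replicate 4. A difference above 0 under all 4 numbers was found in that comparison for 2 of 15 probe sets (cxcl12b and plk2b), against 3.5% of all probe sets, and one below 0 for 0 of 15, against 3.43%.

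Against the control array of the same number, cxcl12b differed by 0.66, 0.79, -0.13 and -0.92 in MO-1 arrays numbered 1 to 4 and by 1.33, 0.90, 0.99 and -0.51 in MO-2 arrays. The MO-2 arrays numbered 1, 2 and 3 were thus above their controls by at least 0.90, and the array numbered 4 was below its own. When the replicate number entered as a block, the SE of this difference was 0.27 in place of 0.51 and the unadjusted p 0.0261, which did not pass after adjustment (adjusted p = 0.757 by limma). Leaving out MO-2 replicate 4 gave 1.12 and leaving out MO-2 replicate 1 gave 0.27.

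The brighter probe set of cxcl12a had 9.03, 8.10, 8.53 and 8.24 in MO-1 replicates 1 to 4 and 8.61, 8.40, 9.45 and 8.34 in MO-2 replicates 1 to 4, against 8.76, 8.39, 8.69 and 8.56 in control replicates 1 to 4. MO-1 replicate 1 and MO-2 replicate 3 stood above the control range, and MO-1 replicates 2 and 4 and MO-2 replicate 4 lay below it. It differed by -0.13 (95% interval -0.67 to 0.41) with MO-1 and 0.10 (95% interval -0.44 to 0.64) with MO-2. The other cxcl12a probe set, which correlated with it at 0.88 over the 12 arrays, differed by -0.33 (SE 0.30) and 0.026 (SE 0.30), and none of the 4 differences passed (adjusted p = 1 each by limma).

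Of the CXCL12 receptors and other chemokine genes listed, 5 of 20 were measured, and 0 passed with either morpholino. Their mean was higher than in control for 0 of 5 with MO-1 and for 2 of 5 with MO-2. The receptor gene cxcr4b had means of 7.19 ± 0.54 with MO-1 and 7.05 ± 0.52 with MO-2, against 7.44 ± 0.19 in control (SD, n = 4 each), differences of -0.25 (SE 0.28) and -0.39 (SE 0.28). The chemokine gene cxcl14 differed by -0.37 (SE 0.31) and -0.23 (SE 0.31), and neither gene passed (adjusted p = 1 each by limma).

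vegfaa encodes a zebrafish VEGF-A, the main growth factor of endothelial cells, which is mostly made by the tissues around the vessels. Its log2 signals were 6.91, 6.91, 5.97 and 6.76 in MO-1 replicates 1 to 4 and 7.09, 6.83, 6.16 and 7.67 in MO-2 replicates 1 to 4, against 6.798, 6.66, 6.92 and 7.02 in control replicates 1 to 4. The control arrays lay close together, and both the lowest arrays (MO-1 and MO-2 numbered 3) and the highest (MO-2 numbered 4) were morpholino arrays. The difference was -0.21 (95% interval -0.82 to 0.40) with MO-1 and 0.086 (95% interval -0.53 to 0.70) with MO-2, not passing (adjusted p = 1 each by limma). Of the other VEGF ligands and receptors listed, 5 of 17 were measured and 0 passed, with a higher mean for 4 of 5 with MO-1 and for 4 of 5 with MO-2. flt4, the receptor of the lymphatic and venous VEGF-C pathway, differed by 0.17 (SE 0.29) with MO-1 and 0.24 (SE 0.29) with MO-2, and its ligand vegfc by 0.00081 (SE 0.19) and 0.24 (SE 0.19).

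adam9a encodes a membrane-bound metalloprotease that sheds the outer parts of cell surface proteins. It had 7.07, 7.37, 6.69 and 7.27 in MO-1 replicates 1 to 4 and 7.14, 7.35, 6.76 and 7.40 in MO-2 replicates 1 to 4, against 7.19, 7.11, 7.17 and 7.22 in control replicates 1 to 4. The controls spanned a narrow range, the arrays numbered 3 of both morpholinos and MO-1 replicate 1 lay under it, and the arrays numbered 2 and 4 of both lay over it. The difference was -0.071 (95% interval -0.45 to 0.31) with MO-1 and -0.0080 (95% interval -0.38 to 0.37) with MO-2 (adjusted p = 1 each by limma). Among ADAM proteases and their inhibitors 8 of 22 listed genes were measured and 0 passed, with a higher mean for 4 of 8 with each morpholino. The sheddase genes adam10b and adam10a differed by 0.18 and -0.099 with MO-1 and by 0.22 and -0.21 with MO-2. The signal of adam10a was low. Its means of 4.82 with MO-1, 4.71 with MO-2 and 4.92 in control lay under the lower quartiles of the arrays (5.37 to 5.59).

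crk had the smallest spread of the genes that were bright on the array. It encodes an adaptor protein that joins phosphorylated receptors and focal adhesion proteins to activators of the small GTPases RAC and RAP. Log2 signals were 9.96, 9.82, 9.76 and 9.78 in MO-1 replicates 1 to 4 and 10.12, 9.74, 9.73 and 9.71 in MO-2 replicates 1 to 4, against 9.68, 9.59, 9.97 and 9.79 in control replicates 1 to 4. Of the 12 arrays, 11 lay between 9.59 and 9.97, and MO-2 replicate 1 was the highest at 10.12. The difference was 0.069 (95% interval -0.22 to 0.36) with MO-1, 0.067 (95% interval -0.23 to 0.36) with MO-2 and 0.068 (95% interval -0.19 to 0.32) with both. The last interval corresponds to folds from 0.879 to 1.25, and the intervals of the single morpholinos reach folds of 1.29 with MO-1 and 1.28 with MO-2. Leaving out 1 array or 1 number moved the difference with both to between -0.027 without replicate 1 and 0.17 without replicate 3.

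pak1 encodes a kinase that RAC and CDC42 switch on and that acts on the actin skeleton. Its log2 signals were 10.05, 10.34, 8.60 and 9.38 in MO-1 replicates 1 to 4 and 10.05, 9.48, 9.47 and 9.44 in MO-2 replicates 1 to 4, against 10.54, 9.74, 9.93 and 8.99 in control replicates 1 to 4. The MO-1 and control arrays spread widely and the MO-2 arrays other than replicate 1 lay close together between their extremes. The difference was -0.21 (95% interval -1.003 to 0.59) with MO-1 and -0.19 (95% interval -0.98 to 0.60) with MO-2, not passing (adjusted p = 1 each by limma). Of 47 listed partners of crk and pak1 26 were measured and 0 passed, with a higher mean for 12 of 26 with MO-1 and 13 of 26 with MO-2. The gene with the smallest p among them was rhoab, which encodes a RhoA GTPase of actin contraction. Its mean was 8.93 ± 0.30 with MO-1 and 8.90 ± 0.17 with MO-2, against 9.42 ± 0.092 in control (SD, n = 4 each), differences of -0.49 (SE 0.16) and -0.52 (SE 0.16) that did not pass (adjusted p = 1 each by limma). The small GTPase gene rap1b came next, at -0.19 (SE 0.15) and -0.15 (SE 0.15).

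plk2b is a polo-like kinase gene, of a family that acts in centriole duplication and in stress responses. It had 10.14, 10.31, 10.36 and 9.05 in MO-1 replicates 1 to 4 and 10.19, 10.31, 10.50 and 9.11 in MO-2 replicates 1 to 4, against 10.41, 10.02, 10.07 and 9.57 in control replicates 1 to 4. The array numbered 4 was the lowest of each group and the 3 of them lay below the other 9, while the groups overlapped almost fully. The difference was -0.054 (95% interval -0.78 to 0.67) with MO-1 and 0.0090 (95% interval -0.71 to 0.73) with MO-2 (adjusted p = 1 each by limma). Among polo-like kinases and centrosome genes 6 of 11 were measured and 0 passed, with a higher mean for 5 of 6 with MO-1 and 4 of 6 with MO-2. The centriole gene stil differed by 0.21 and 0.20, and plk3 by -0.066 and -0.082.

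tom1 encodes an endosomal adaptor that binds ubiquitin, clathrin and TOLLIP. The platform's annotation gives this symbol to 4 probe sets under 2 different gene numbers. The 2 dimmer ones carry the number that the RefSeq table holds for tom1, and the 2 brighter ones carry a number with no entry in that table, so the brighter pair may not measure the same gene. The brightest had 7.46, 7.78, 7.91 and 7.53 in MO-1 replicates 1 to 4 and 7.498, 7.77, 7.85 and 6.99 in MO-2 replicates 1 to 4, against 7.53, 7.67, 7.19 and 7.35 in control replicates 1 to 4. MO-2 replicate 4 was the lowest of the 12, and MO-1 and MO-2 numbered 2 and 3 lay above all controls. It differed by 0.24 (SE 0.19) with MO-1 and 0.096 (SE 0.19) with MO-2, and the second probe set under the same number by 0.26 (SE 0.22) and 0.29 (SE 0.22), none passing (adjusted p = 1 each by limma). The pair correlated at 0.80 over the 12 arrays. Both probe sets under the RefSeq number were below the lower quartile on 12 of 12 arrays and had group means of 3.91 ± 0.072 and 3.44 ± 0.11 with MO-1 and 4.03 ± 0.15 and 3.46 ± 0.15 with MO-2, against 3.92 ± 0.090 and 3.52 ± 0.20 in control (SD, n = 4 each). 1 of them has the platform's mark for probes that may match several transcripts. Their differences were -0.010 and -0.073 with MO-1 and 0.11 and -0.055 with MO-2, and across the 2 numbers the probe sets correlated between -0.39 and -0.22. Of the relatives of tom1 and endosomal sorting genes 14 of 32 were measured and 0 passed, with a higher mean for 5 of 14 with MO-1 and 7 of 14 with MO-2. The endosomal GTPase gene rab5b differed by 0.23 and 0.33, and vps28, a subunit of the ESCRT-I sorting complex, by -0.20 and -0.27.

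**Figure D3:**
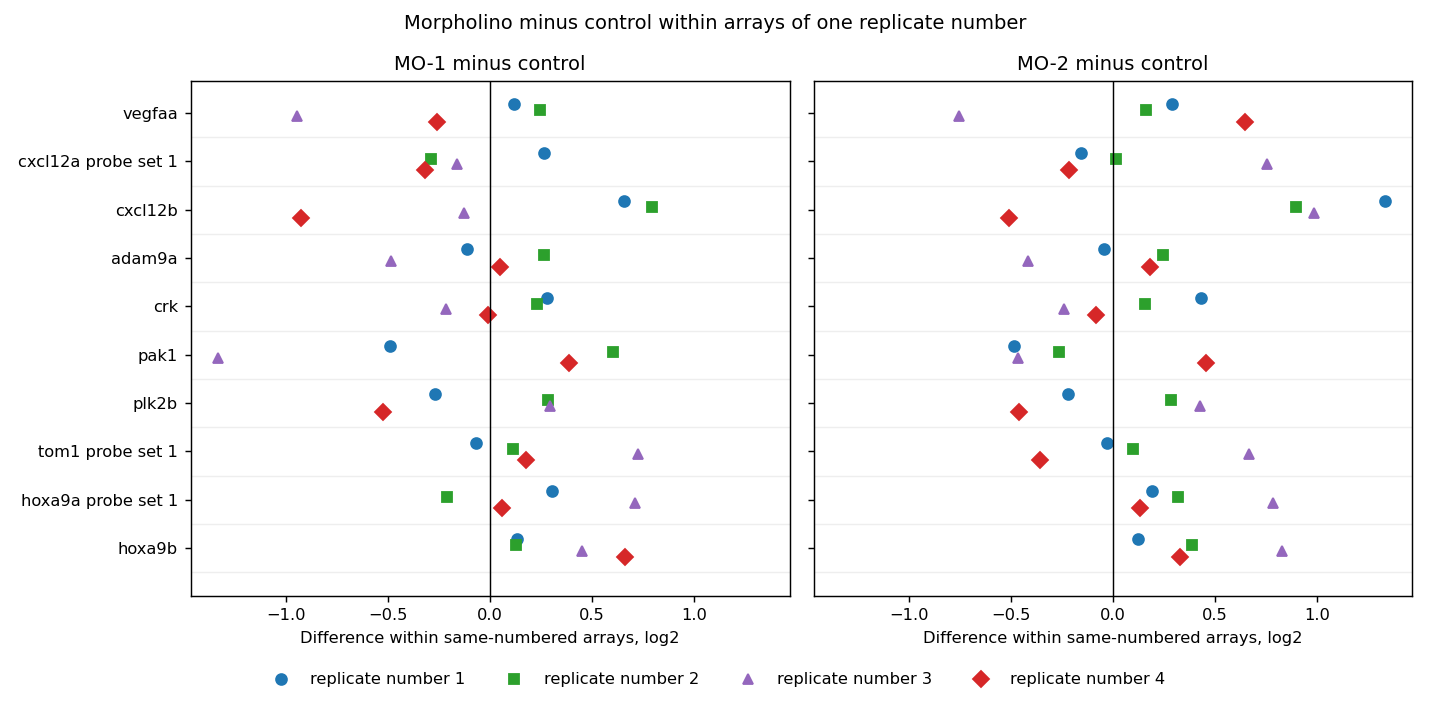
Difference from the control array of the same replicate number, in log2, for the brightest probe set of each of the 10 genes; the left panel is MO-1 and the right panel MO-2, and each symbol is a replicate number. hoxa9b lies to the right of 0 under all 4 numbers in both panels, and cxcl12b with MO-2 lies at 1.33, 0.90, 0.99 and -0.51 under numbers 1 to 4.

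For comparison, spred1, an inhibitor of Ras-ERK signalling and the best known target of miR-126 in vessels, has 4 probe sets on the array. They differed from control by 0.067, -0.014, -0.32 and 0.14 with MO-1 and by 0.18, -0.15, -0.085 and -0.037 with MO-2, from the brightest to the dimmest, and 0 of 4 passed (adjusted p = 1 each by limma). The dimmest was under the lower quartile on 12 of 12 arrays. Over the 12 arrays the 4 probe sets correlated with each other between -0.13 and 0.56.

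The replicate number separated 2 of the 15 probe sets. In a limma F test of the replicate number beside the group, 2 of 15 passed, plk2b (adjusted p = 0.00701) and cxcl12b (adjusted p = 0.0122), where 12.1% of all 15502 probe sets passed, so the share of these probe sets is close to that of the whole array. At an unadjusted p under 0.05 the counts were 7 of 15 and 28% of all probe sets. The labels give the replicates as biological and do not say what arrays with the same number share. plk2b averaged 10.25, 10.21, 10.31 and 9.24 in the arrays numbered 1 to 4, and those numbered 4 differed from the mean of the others by -1.02. cxcl12b averaged 9.30, 8.24, 8.32 and 7.46, with differences of 1.296 for the arrays numbered 1 and -1.16 for those numbered 4 from the mean of the other numbers. The call of plk2b ended without the arrays numbered 4 (adjusted p = 0.92) and that of cxcl12b without those numbered 1 (adjusted p = 0.162). Without the MO-1 arrays neither passed (adjusted p = 0.1 for plk2b and 0.104 for cxcl12b), nor without the MO-2 arrays (adjusted p = 0.103 and 0.136), and without the control arrays they had adjusted p = 0.00989 and 0.00331. The part that the endothelial, muscle and epidermal marker signals and the 3′ minus 5′ signal of the arrays numbered 4 had in the values of plk2b and cxcl12b was not tested.

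For the 3 genes with the largest SD over the 12 arrays, cxcl12b, pak1 and plk2b, the genes of most similar pattern were looked up by Pearson correlation over 12 arrays among 8792 other genes. These arrays share replicate numbers, and the best of so many genes correlates highly in any case, so the values are a description. The genes most like plk2b were plvapb (r = 0.95), a protein of endothelial fenestrae, exorh (r = 0.94), an opsin of the pineal gland, and kdrl (r = 0.94), the VEGF receptor also known as flk1 whose regulatory region drives the GFP of the sort. kdrl had 7.63, 8.11, 7.78 and 5.82 in MO-1 replicates 1 to 4 and 8.51, 7.88, 8.08 and 5.88 in MO-2 replicates 1 to 4, against 7.64, 7.46, 7.57 and 6.36 in control replicates 1 to 4. Like plk2b, it was lowest in the array numbered 4 of each group, with a difference of -1.83 from the other numbers. Over the 9 arrays without number 4, plk2b correlated at 0.62 with plvapb, 0.47 with exorh and 0.37 with kdrl, an alternative chosen after seeing the data.

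The genes most like pak1 were nckap5l (r = 0.98), ctnna2 (r = 0.96), a catenin of neurons, and gpm6ab (r = 0.96), a membrane glycoprotein of neurons. gpm6ab had 8.92, 8.86, 7.11 and 8.15 in MO-1 replicates 1 to 4 and 8.63, 8.19, 8.30 and 8.41 in MO-2 replicates 1 to 4, against 9.27, 8.40, 8.44 and 7.53 in control replicates 1 to 4. As with pak1, MO-1 replicate 3 was the lowest array and control replicate 1 was the highest. The score of 29 measured neural markers of 32 listed was -0.57 in that MO-1 array, the lowest of the 12, and 0.72 in that control array, the highest. That MO-1 array also had the lowest erythroid score, -1.13. MO-1 replicate 2, with the next highest pak1 signal of 10.34, had a neural score of 0.022. Neural markers had a mean level of 6.77 to 7.65 over MO-1 arrays and 7.01 to 7.51 over MO-2 arrays, against 7.10 to 8.07 over control arrays, 4 of 29 had a mean under the lower quartile, and their part in the values of pak1 was not tested. The genes most like cxcl12b were gtsf1 (r = 0.90), which in mouse acts in the piRNA pathway of germ cells, zp3d.1 (r = 0.90), a zona pellucida protein gene, and vdac1 (r = 0.89), a channel of the outer mitochondrial membrane. Over the 9 arrays without number 4 these values were 0.98, 0.98 and 0.97 for pak1 and 0.86, 0.82 and 0.88 for cxcl12b.

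**Figure D4:**
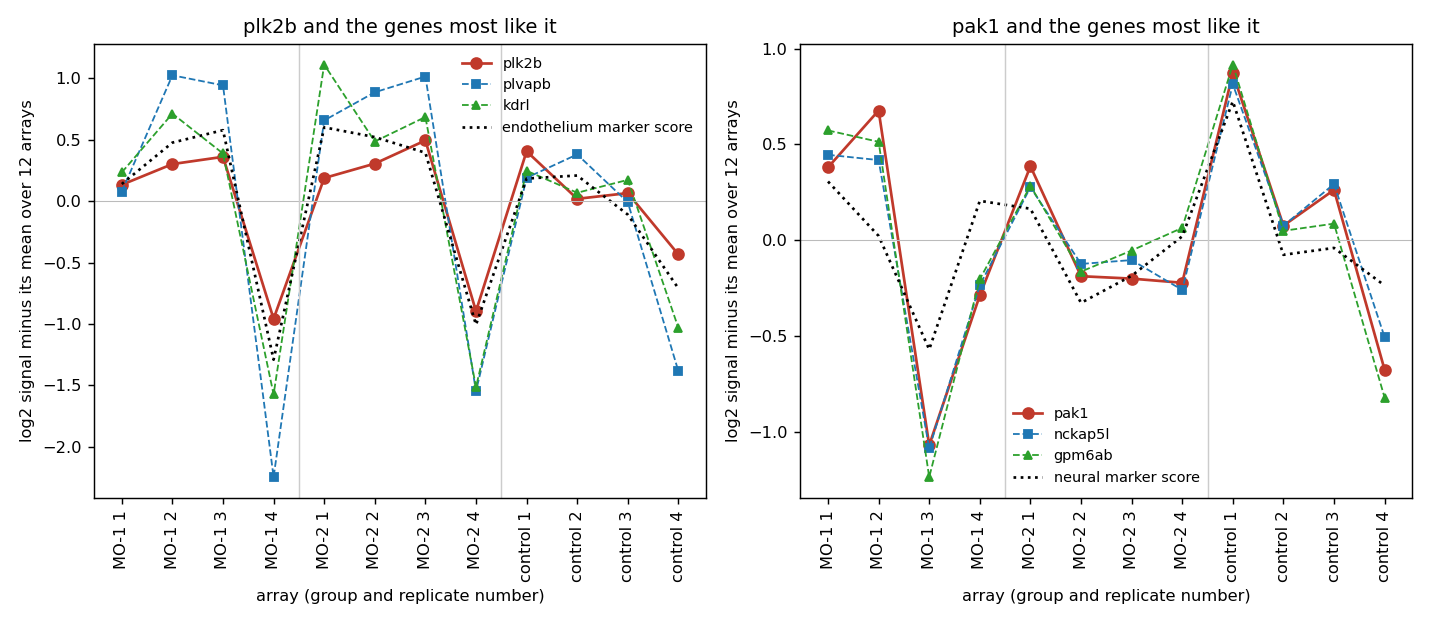
Log2 signal minus its mean over the 12 arrays, along the arrays of MO-1, MO-2 and control, for plk2b with plvapb and kdrl (left) and for pak1 with nckap5l and gpm6ab (right); dotted lines are the endothelial and the neural marker scores. plk2b and the endothelial genes are lowest in replicate 4 of each group, and pak1 and its 2 companions are lowest in MO-1 replicate 3 and highest in control replicate 1. Both plvapb and kdrl are among the 10 genes of the endothelial score, so its line follows theirs in part by construction.

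Among themselves the 10 genes did not vary as 1 group. After centring on group means, 29 of the 45 pairs of genes correlated above 0 over the 12 arrays, with a median of 0.18. The highest value was 0.85 for vegfaa with adam9a, both low in the morpholino arrays numbered 3, followed by 0.81 for the brightest tom1 probe set with hoxa9b and 0.74 for hoxa9a with hoxa9b. The lowest was -0.83 for vegfaa with the brightest tom1 probe set. These correlations describe 12 arrays that share replicate numbers, and no test was made of them.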

How the data were processed

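The 12 arrays were 1-colour Affymetrix zebrafish arrays. RNA was extracted with Trizol and amplified with NuGen's WT-Ovation Pico kit, per the labels' protocols. The authors deposited log2 signals per probe set, made with RMA, per the submitters' processing notes, whose version those notes do not state. That the scale is log2 was read from the range of the values. Array medians ran from 6.79 to 6.85, lower quartiles from 5.37 to 5.59; RMA gives no call of detection, and the number of arrays limits the precision.

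Of 15617 probe sets, 115 controls were left out and 15502 tested without a filter. Names came from the platform's annotation, updated through Entrez numbers in RefSeq's table of the GRCz12tu assembly: 10795 probe sets had 1 symbol, 135 several and 4572 none; 10711 had a RefSeq entry, which changed 1 symbol. A gene outside the 10 stands for its probe set with the highest mean. Group means were compared with limma 3.58.1 in R 4.3.3 (lmFit, eBayes), two-sided, with Benjamini-Hochberg adjustment over all tested probe sets and a threshold of 0.05; intervals are 95%. The half-width of the interval had a median of 0.40 log2 for 4 against 4 arrays. The script was tested on simulated data. For the group comparisons these held no signal shared by replicate number, so they do not show how the comparisons behave under such a signal.

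The genes and lists were chosen with earlier results of these data known. All probe sets of the 10 genes are named, and of each pathway list the 2 genes with the smallest p for both morpholinos. Further genes of the Hox list were named after seeing the data. The 3 genes most like each of the 3 most variable members are named too. Replicate numbers pair the samples: the deviations from group means of same-numbered arrays correlated at 0.22 to 0.63 in all 12 pairs. A fit with the number as a block was therefore run beside the main one. Unless the block is named, SEs and intervals of single genes come from the main fit, which counts the shared signal as error. With the block the SE of a morpholino against control was 0.27 in place of 0.37 for pak1, and 0.14 in either fit for crk.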

Additional observations from a re-analysis of the deposited data

Results flagged for a closer look

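In 57 groups of 4 arrays (15 probe sets of the 10 genes and 4 of spred1, in 3 groups), 5 held an array far from the other 3 by Dixon's test; chance alone gives this in about 5% of groups. vegfaa in MO-1 replicate 3 was the lowest of its group at 5.97, with the next at 6.76. crk in MO-2 replicate 1 was the highest of its group at 10.12, with the next at 9.74. pak1 in the same array was also the highest of its group, at 10.05, with the next at 9.48. Of spred1, the second brightest probe set was lowest in MO-1 replicate 2 at 6.24, with the next at 6.85, and the third was highest in MO-2 replicate 2 at 6.79, with the next at 6.32. The causes were not tested.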

How the results depend on the processing

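No member probe set passed the test in any of the 4 comparisons under any setting tried: the replicate number as a block, quantile normalization, arrays centred on their medians, an intensity trend with robust variances, a filter on low signal (which dropped 3 dim probe sets), only the groups compared, or leaving out 1 array or the arrays of 1 number. Replicate block fits gave 0 called probe sets in each comparison (0 of 15 members) and changed no call. Over all probe sets, leaving out arrays called 0 to 1 with MO-2 and 0 to 1 with both, the 1 arising without the arrays numbered 4. The median difference of the 10 genes between MO-2 and MO-1 ran from 0.012 (without MO-2 replicate 2) to 0.15 (without MO-1 replicate 2). With MO-1 against control the direction of 7 probe sets turned when 1 array or 1 replicate number was left out, with ranges of -0.36 to 0.032 for vegfaa, -0.28 to 0.48 for cxcl12b, -0.18 to 0.067 for adam9a, -0.48 to 0.17 for pak1, -0.20 to 0.25 for plk2b, -0.060 to 0.042 for the third tom1 probe set and -0.16 to 0.0048 for the dimmest tom1 probe set. With MO-2 against control the direction of 9 probe sets turned when 1 array or 1 replicate number was left out, with ranges of -0.16 to 0.37 for vegfaa, -0.15 to 0.22 for the brighter cxcl12a probe set, -0.21 to 0.19 for the dimmer cxcl12a probe set, -0.093 to 0.13 for adam9a, -0.054 to 0.17 for crk, -0.46 to 0.056 for pak1, -0.15 to 0.32 for plk2b, -0.096 to 0.27 for the brightest tom1 probe set and -0.14 to 0.023 for the dimmest tom1 probe set. With both morpholinos against control the direction of 8 probe sets turned when 1 array or 1 replicate number was left out, with ranges of -0.19 to 0.20 for vegfaa, -0.14 to 0.071 for the brighter cxcl12a probe set, -0.14 to 0.098 for adam9a, -0.027 to 0.17 for crk, -0.47 to 0.047 for pak1, -0.17 to 0.13 for plk2b, -0.011 to 0.25 for the brightest tom1 probe set and -0.15 to 0.014 for the dimmest tom1 probe set. Between MO-2 and MO-1 the direction of 11 probe sets turned when 1 array or 1 replicate number was left out, with ranges of -0.023 to 0.44 for the brighter cxcl12a probe set, -0.074 to 0.20 for adam9a, -0.099 to 0.042 for crk, -0.31 to 0.31 for pak1, -0.24 to 0.37 for plk2b, -0.25 to 0.038 for the brightest tom1 probe set, -0.23 to 0.25 for the second tom1 probe set, -0.047 to 0.076 for the dimmest tom1 probe set, -0.0039 to 0.26 for the brighter hoxa9a probe set, -0.050 to 0.12 for the dimmer hoxa9a probe set and -0.027 to 0.21 for hoxa9b. Quantile normalization turned 3 differences with both morpholinos, to 0.011 for the brighter cxcl12a probe set, 0.019 for plk2b and -0.0048 for the third tom1 probe set, and centring on medians turned that of crk between MO-2 and MO-1 to 0.0037. The causes were not tested. In the exact permutation test, unadjusted and without regard to the replicate numbers, 2 of 60 values fell under 0.05, hoxa9b with MO-1 (p = 0.0286) and with both (p = 0.0141). With 4 against 4 arrays a value under 0.05 arises only without overlap, which 0.645% (higher) and 0.323% (lower) of all probe sets showed with MO-1. For both together the share over all probe sets was not computed. The F test of the replicate number called 628 probe sets without the MO-1 arrays, 618 without the MO-2 arrays and 805 without the control arrays, in place of 1873, with 0, 0 and 2 members; fewer arrays entered these fits. Leaving out 1 number gave 516 to 1587 probe sets and 1 to 3 members. Taking tom1 by the RefSeq number, an alternative chosen after seeing the data, moved the median of the 10 genes by less than its spread over replicate numbers, as did the mean over the probe sets of a gene.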
